A study of Mus musculus with 22 samples.

Results

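MC38 tumor samples of mice lacking VISTA were compared with those of wild-type mice across all genes that passed an expression filter. MC38 is a mouse colon carcinoma line that is grown as a transplanted tumor. The tumor experiment holds 6 of the 22 libraries of the series. Its groups are VISTA knockout (KO, 3 libraries) and wild type (WT, 3 libraries), and the sample titles name each library and its group. Both groups are labelled with the strain background C57BL/6N, tumor tissue and day 7. No further agent or allele is given, and neither the kind of deletion nor the number of animals per library is stated in the labels. The other 16 libraries are cultured bone marrow myeloid cells, labelled with the same strain background. They come from VISTA KO and WT mice in hypoxia (24 hours) and in normoxia (day 4), with 4 libraries per genotype in each. Of the 24251 genes in the deposited tumor count table, 14370 passed the filter and were tested.

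VISTA is an immune checkpoint protein of the B7 family, encoded by Vsir. It is found on myeloid cells and on T cells, and it restrains T cell responses. Myeloid-derived suppressor cells (MDSC) are immature monocytes and granulocytes that gather in tumors and dampen T cells, partly through arginase and nitric oxide synthase. The title of the study names the metabolism of these cells, STAT3 and polyamines, and the names of the deposited tables speak of MDSC also for the tumor samples. Whether cells were purified from the tumors is not stated.

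Total counts were 23089943, 21303624 and 19119985 in KO 1 to KO 3, against 29698687, 31716200 and 27452024 in WT 1 to WT 3. Every KO library was thus smaller than every WT library, and with the counts thinned to the smallest library 882 of 13871 tested genes were called, 819 of them among the 908 called at full depth. The first principal component of log2 CPM held 51.5% of the variance and separated the genotypes. The second component held 20.1% and set KO 3 (-19.2) and WT 3 (-12.97) apart from the other 4 libraries (6.71 to 9.77). Counts of libraries of one group differed beyond sampling noise, with a chi-square of 4.57 to 24.8 for each degree of freedom, so none was a copy of another. Since no label states that tumor libraries came from separate animals, p-values measure the spread between these libraries, which may be technical. Levels are given in CPM, for which each count was divided by the effective (TMM) size of its library, and differences are log2 fold changes of KO over WT with their standard error (SE).

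The libraries had high levels of monocyte and macrophage markers and low levels of most carcinoma markers. Ptprc, the pan-leukocyte marker CD45, had 1069 to 1130 CPM in KO libraries and 963 to 1031 CPM in WT libraries. Csf1r, the receptor that monocytes and macrophages depend on, had 2563 to 2913 CPM in KO and 2409 to 2744 CPM in WT libraries, and Ly6c2 of inflammatory monocytes had 2401 to 2971 CPM in KO and 2416 to 3145 CPM in WT libraries. Epcam, the defining epithelial surface marker, was at most 0.661 CPM in KO and 0.673 CPM in WT libraries. The keratins Krt8, Krt18 and Krt19 were at most 0.537 CPM in 5 of the 6 libraries, while KO 2 had 5.47, 2.12 and 2.69 CPM. Ly6g of granulocytes was at or under 0.160 CPM in every library, and S100a8 had 2.40 to 3.97 CPM in KO and 1.54 to 2.82 CPM in WT libraries. The defining markers Epcam and Ly6g were thus near 0, although Cdh1, the epithelial cadherin that some myeloid cells also make, had 24.7 to 46.9 CPM in KO and 16.0 to 33.4 CPM in WT libraries. Other genes of the neutrophil list had higher levels, and the list of 28 genes summed to 2586 to 2741 CPM in KO and 2324 to 2477 CPM in WT libraries. Csf3r, the G-CSF receptor, had 302 to 345 CPM in KO and 221 to 252 CPM in WT libraries and rose (0.44, adjusted p 0.0049), and Cd177, a neutrophil surface protein, had 101 to 131 CPM in KO and 82.1 to 89.8 CPM in WT libraries and rose (0.40, adjusted p 0.027). Cd177 was called with KO 3 left out and with no other library left out (adjusted p up to 0.155). Of 20 neutrophil genes tested 2 rose and 3 fell, where 3.28% and 3.04% of all genes did, and 3 in all were called without KO 2. The 3 that fell were the chemokine receptor Cxcr4 (-0.90, adjusted p 1.8e-05), the integrin Itgam (-0.41, adjusted p 0.0037) and the transcription factor Cebpe (-1.09, adjusted p 0.011). Cebpe averaged 1.75 CPM in KO and 3.73 CPM in WT libraries and was not called without KO 2 (adjusted p 0.0547). The part of neutrophils in the results was not tested. In such bulk RNA, fewer cells of a type and less RNA per cell cannot be told apart.

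Vsir (chr10:60346851-60372684, GRCm38, plus strand) had 114, 113 and 128 CPM in KO libraries, against 427, 469 and 480.3 CPM in WT libraries. Every KO library was below every WT library, and KO libraries kept 25.8% of the mean WT level. The log2 fold change was -1.95 ± 0.079 (SE, n = 3 each), with an edgeR adjusted p of 1.2e-08. An exact two-sided permutation test gave p = 0.1, the smallest that 3 against 3 allows. Reads thus remained on Vsir in the KO libraries, and the part of the gene that was deleted is not given in the labels. Cdh23, a cadherin gene, had 10.8, 9.67 and 11.6 CPM in KO and 3.62, 2.69 and 4.46 CPM in WT libraries, a rise of 1.58 ± 0.19 (adjusted p 0.00031). The groups did not overlap, but Cdh23 lies on the other strand and spans Vsir. Whether counting used strand is not given, and reads of this pair may be shared.

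KO and WT libraries differed in 908 of the 14370 genes at an edgeR adjusted p under 0.05, which is 6.32% of those tested. Of these, 471 rose (3.28%) and 437 fell (3.04%). Most changes were small: the median log2 fold change was 0.62 among genes that rose and -0.53 among genes that fell, and 127 genes (0.884%) rose and 91 (0.633%) fell by more than 1 on the log2 scale. Over all tested genes the median was 0.0098. The KO and WT libraries did not overlap in 3745 genes (26.1%), 1870 with KO above WT and 1875 with KO below WT (13% each). Library numbers were shared between the genotypes, and same-numbered libraries deviated together. With the library number as a replicate block, 2266 genes were called (15.8%), 1164 higher (8.1%) and 1102 lower (7.67%), and 906 of the 908 were among them. The count was 444 without KO 1, 455 without KO 2 and 515 without WT 2, against 1072 without KO 3.

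**Figure D1:**
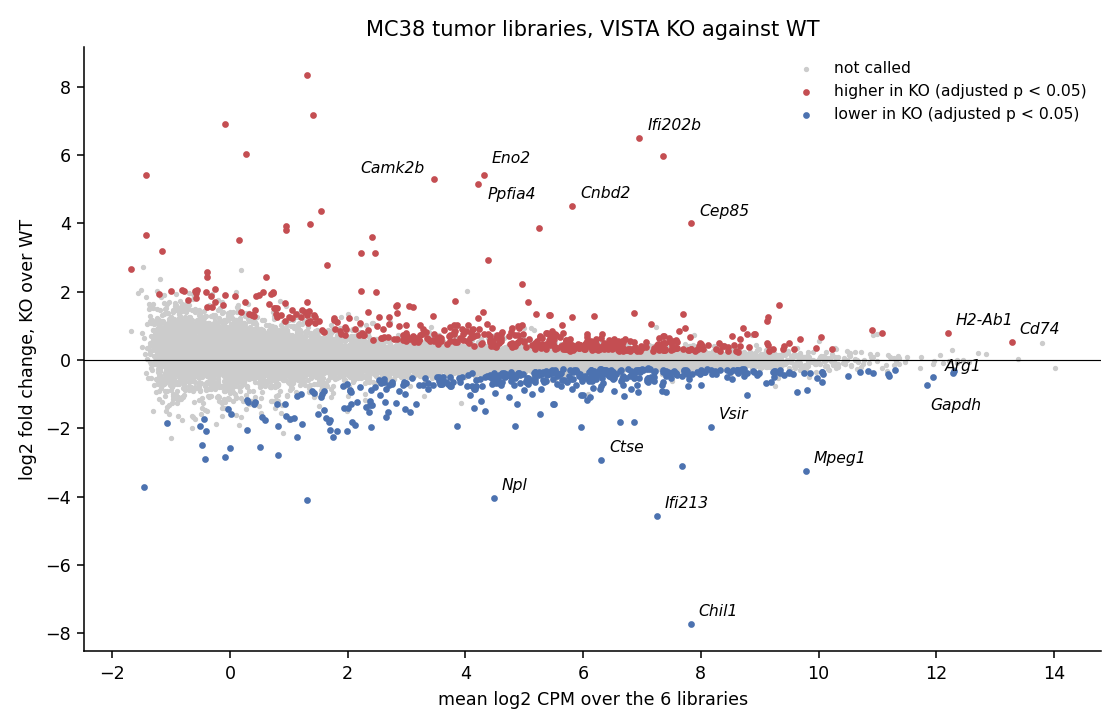
Log2 fold change of KO over WT (y axis) against mean log2 CPM over the 6 libraries (x axis) for each of the 14370 tested genes. Genes called higher in KO (471) are red, genes called lower (437) are blue and the rest are grey, and most called genes lie within 1 of zero while a few, such as Ifi202b and Chil1, lie far from the rest.

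The 6 largest rises by rule belonged to genes with at most 28.1 CPM in any WT library. Ifi202b, an interferon-inducible gene of the Ifi200 family (chr1:173962568-173982744), had 268, 272 and 198 CPM in KO and 2.75, 2.28 and 3.08 CPM in WT libraries, a log2 fold change of 6.51 ± 0.17 (adjusted p 4.7e-09). Cep85, a centrosomal protein (chr4:134129858-134187112), had 491, 446 and 355 CPM in KO and 24.6, 28.0 and 28.1 CPM in WT libraries (4.00 ± 0.13). Cnbd2, a cyclic nucleotide binding protein (chr2:156312299-156375638), had 113, 109 and 104 CPM in KO and 4.70, 4.68 and 4.85 CPM in WT libraries (4.52 ± 0.088). In each of these genes every KO library lay far above every WT library. Ppfia4, a liprin alpha scaffold protein, averaged 36.6 ± 0.845 CPM in KO and 1.02 ± 0.0631 CPM in WT libraries (SD, n = 3 each), a log2 fold change of 5.16. Camk2b, a calmodulin-dependent kinase, averaged 22.2 ± 1.88 CPM in KO and 0.559 ± 0.177 CPM in WT libraries (5.29). Eno2, the neuronal enolase, averaged 39.6 ± 1.11 CPM in KO and 0.920 ± 0.179 CPM in WT libraries (5.41). All 3 genes were near or below 1 CPM in WT libraries. The other 6 of the 12 largest rises by rule ran from 1.35 to 1.70 and included Glul, glutamine synthetase, with 51.6, 49.97 and 51.8 CPM in KO and 13.7, 17.3 and 16.3 CPM in WT libraries. They also held the chemokine Ccl5, the phospholipid transfer protein Pltp, the complement protease C1s1, the membrane protein Tmem176a and the transporter Mfsd13a. Calls of Pltp (highest adjusted p 0.125) and C1s1 (0.0914) were lost when WT 1 or WT 2 was left out, and that of Pltp also without KO 2.

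Falls were led by Chil1, a chitinase-like protein (chr1:134182176-134190181), with 2.31, 1.08 and 3.04 CPM in KO and 406, 435 and 516 CPM in WT libraries. Its log2 fold change was -7.73 ± 0.26 (adjusted p 3.1e-06). Mpeg1, the pore-forming perforin-2 of phagocytes (chr19:12460779-12465283), was one of the most abundant genes to fall, with 158, 153 and 187 CPM in KO and 1581, 1606 and 1575 CPM in WT libraries (-3.26 ± 0.089). Ctse, the aspartic protease cathepsin E (chr1:131638306-131675505), had 19.1, 16.5 and 19.0 CPM in KO and 133, 146 and 139 CPM in WT libraries (-2.93 ± 0.086). Npl, which breaks down sialic acid (chr1:153503015-153550045), had 2.49 ± 0.569 CPM in KO and 41.2 ± 3.68 CPM in WT libraries (-4.03 ± 0.15). None of these 4 genes overlapped between the genotypes. The remaining falls by the same rule were Ifi213, Ifi206 and Ifi208 of the Ifi200 family (-4.56, -3.11 and -1.81), the junction protein F11r (-1.95), the dynein assembly factor Dnaaf5 (-1.94), the securin Pttg1 (-1.93) and the immune receptor Slamf7 (-1.82), besides Vsir. Ifi200 genes are close paralogs whose reads can be split by the counting, so their separate values are uncertain. The call of F11r was lost without any 1 of KO 1, KO 2, WT 1, WT 2 and WT 3 (adjusted p up to 0.0704).

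**Figure D2:**
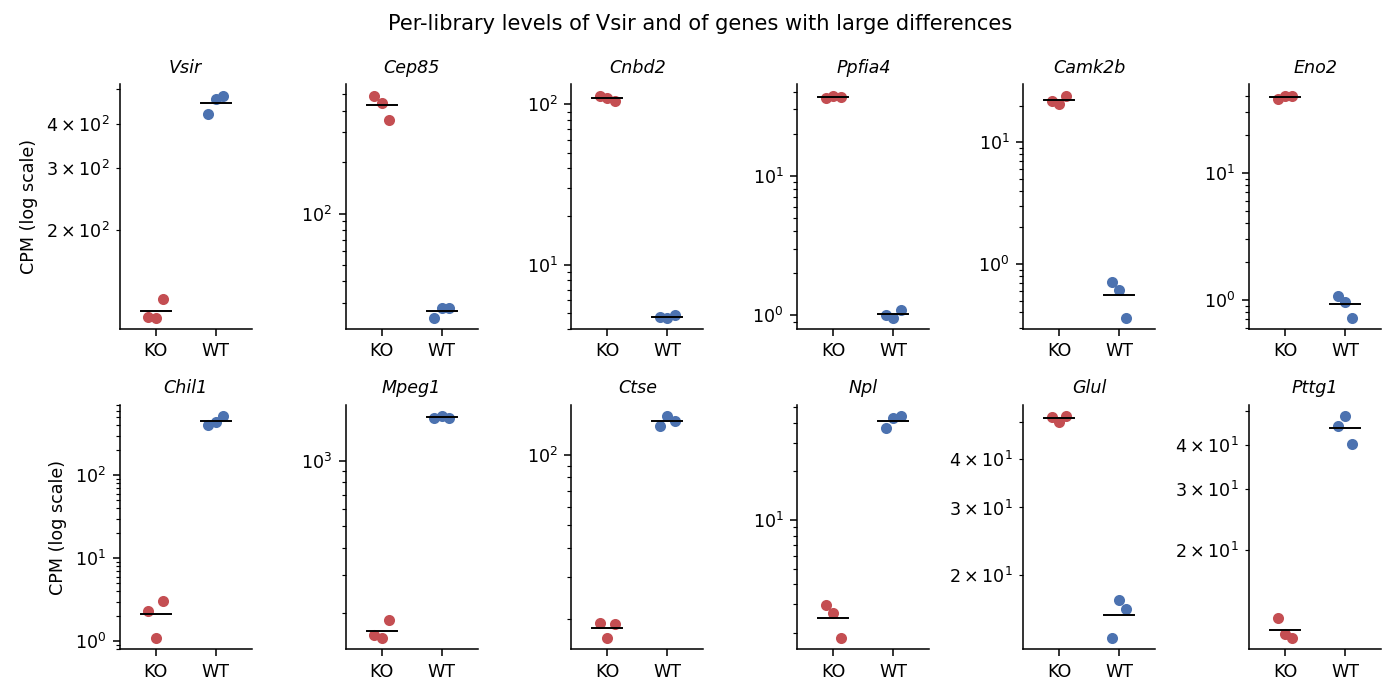
CPM on a log scale (y axis) of 12 genes in each KO library (red, left) and WT library (blue, right), with a line at the group mean. In each panel the 3 KO libraries lie wholly above or below the 3 WT libraries, for Chil1 at 1.08 to 3.04 CPM against 406 to 516 CPM.

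Several of these genes lie on chromosome 1, and windows chosen after the values were seen were counted there. Between 130 and 180 Mb of that chromosome, 72 of 331 tested genes were called, 32 higher and 40 lower, which is 21.8%. Between 170 and 180 Mb, which holds the Ifi200 and Slamf genes, the count was 40 of 110 (36.4%). Ppfia4, Glul, Btg2 and Ptgs2 also lie between 130 and 180 Mb, and the Fc receptor gene Fcgr2b lies between 170 and 180 Mb. The rest of chromosome 1 had 6.5% of its genes called and all other chromosomes 5.93%. The window's edges are not sharp. Called shares were 17.6% of 17 genes at 100 to 110 Mb, 20% of 10 at 110 to 120 Mb and 25% of 24 at 120 to 130 Mb. Inside the window, 160 to 170 Mb had 3.51% of 57 genes called. Within 5 Mb of Vsir, 7 of 63 tested genes were called (11.1%), against 6.56% on chromosome 10. Beside Vsir and Cdh23, they were Ddit4, Sowahc, Hk1, Gm17455 and Oit3, which were named after their values were seen. Of these, Sowahc, Hk1, Gm17455 and Oit3 were not called without KO 1 or KO 2, nor were Hk1, Gm17455 and Oit3 without KO 3, WT 1 or WT 2, nor Oit3 without WT 3. The labels give 1 strain background for both genotypes. A list of 14 genes known to differ between C57BL/6 substrains or from related strains had 10 tested, of which 3 rose (Ifi202b, Gm16867 and Gm27177) and 1, Wdfy1, fell, against 3.28% and 3.04% of all genes. Gm16867 and Gm27177 lie close together on chromosome 14 and had nearly equal levels (means of 5.63 and 5.28 CPM in KO libraries). They may thus not be separate rises. Wdfy1 was called with WT 3 left out and with no other library left out (adjusted p up to 0.123). Nnt, a mitochondrial gene of that list that C57BL/6J mice lack in part, had 0.361 to 0.697 CPM in KO and 0.181 to 0.671 CPM in WT libraries. It was thus near 0 in both genotypes and did not pass the filter. The labels name C57BL/6N and not C57BL/6J, and which substrain the mice carried was not tested. A part of genetic background in the results was not tested.

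Many glycolysis genes and targets of HIF, the oxygen-sensitive transcription factor, fell in KO libraries. HIF switches on sugar uptake and glycolysis in cells short of oxygen. Of 39 HIF targets tested, 20 fell and 0 rose, against 3.04% and 3.28% of all genes, and the median was -0.35. Of 26 glycolysis genes, 13 fell and 2 rose (Eno2 and the sugar transporter Slc2a6), with a median of -0.31. Slc2a6 (0.33) was not called without KO 1, KO 3, WT 1 or WT 3 (adjusted p up to 0.109). The lists share genes, so these counts are not separate evidence. With the replicate block, 28 HIF targets fell and 1 rose, and 18 glycolysis genes fell and 4 rose, where 7.67% of all genes fell and 8.1% rose. The summed level of the HIF list was 20145 to 21103 CPM in KO libraries and 26437 to 29092 CPM in WT libraries. Lists were chosen with earlier results of these data known.

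The falls included transporters at the start of the pathway and enzymes along it. Slc2a1, the glucose transporter GLUT1, had 615, 639 and 616 CPM in KO and 806, 862 and 791 CPM in WT libraries (-0.39 ± 0.067, adjusted p 0.004). Gpi1, glucose phosphate isomerase, had 777, 825 and 881 CPM in KO and 1255, 1381 and 1282 CPM in WT libraries (-0.66 ± 0.075, adjusted p 0.00022). Gapdh, the central dehydrogenase of glycolysis, had 2593, 2832 and 2844 CPM in KO and 4332, 4892 and 4441 CPM in WT libraries (-0.72 ± 0.076, adjusted p 0.00012). In all 3 genes the highest KO library lay below the lowest WT library. Pgk1 (-0.43), Aldoa (-0.40), Tpi1 (-0.38), Pkm (-0.37) and Eno1 (-0.33), other enzymes of the pathway, and the lactate dehydrogenase Ldha (-0.47) also fell. Slc2a3, the other main glucose transporter, had 5.84, 4.29 and 4.85 CPM in KO and 12.7, 12.8 and 11.5 CPM in WT libraries (-1.30 ± 0.15). Among HIF targets outside glycolysis, Ndrg1 had 165, 175 and 149 CPM in KO and 284, 311 and 231 CPM in WT libraries (-0.76), the oxidase Ero1l averaged 428 ± 5.38 CPM in KO and 677 ± 64.4 CPM in WT libraries (SD, n = 3 each, -0.66), and Mxi1, an antagonist of Myc, averaged 112 ± 4.49 CPM in KO and 166 ± 12.51 CPM in WT libraries (-0.57). Egln3, an oxygen sensor that marks HIF for breakdown, fell (-0.48), while Hif1a itself had 752, 743 and 789.5 CPM in KO and 645, 648 and 704 CPM in WT libraries (0.19 ± 0.069, adjusted p 0.13, and 0.0083 with the replicate block). Without KO 1, 9 of the 15 called glycolysis genes were called, and without KO 2, 13 HIF targets. Calls of Eno1 (adjusted p up to 0.129), Pkm (0.127), Tpi1 (0.0986) and Aldoa (0.0679) were lost without KO 1 or KO 2, and those of Eno1 and Pkm also without WT 2. Hexokinase Hk2 (-0.14, adjusted p 0.24) and the vessel growth factor Vegfa (-0.21, adjusted p 0.19, 0.0059 with the block), named after their values were seen, did not pass the test.

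Promoters of 4 of the fallen HIF targets are shown because HIF is known to bind the letters ACGTG or GCGTG; these genes were chosen after their values were seen. Each line holds the 250 bases before and 50 after the annotated start of a gene, 5′ to 3′ on the gene's strand, from the RefSeq promoter table (GRCm38.p6), and capitals mark either motif on either strand, that is the letters named or their reverse complement, and 2 matches can share bases. Gapdh lies at chr6:125165724-125166023 (minus strand), Pgk1 at chrX:106186850-106187149 (plus), Slc2a1 at chr4:119108495-119108794 (plus) and Bnip3, a mitophagy receptor whose level fell by 0.43 on the log2 scale, at chr7:138909457-138909756 (minus).
Gapdh: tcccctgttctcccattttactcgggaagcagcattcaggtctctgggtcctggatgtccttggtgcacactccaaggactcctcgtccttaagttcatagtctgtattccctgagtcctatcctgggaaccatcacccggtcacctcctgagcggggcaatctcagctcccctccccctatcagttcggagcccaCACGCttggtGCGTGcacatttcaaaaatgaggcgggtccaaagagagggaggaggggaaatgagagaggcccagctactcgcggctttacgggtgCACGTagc
Pgk1: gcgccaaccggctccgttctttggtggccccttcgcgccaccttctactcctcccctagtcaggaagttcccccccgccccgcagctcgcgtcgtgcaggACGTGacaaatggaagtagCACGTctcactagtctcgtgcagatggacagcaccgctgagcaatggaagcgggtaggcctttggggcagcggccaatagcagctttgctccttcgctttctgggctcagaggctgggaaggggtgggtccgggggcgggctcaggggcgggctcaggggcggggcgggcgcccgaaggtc
Slc2a1: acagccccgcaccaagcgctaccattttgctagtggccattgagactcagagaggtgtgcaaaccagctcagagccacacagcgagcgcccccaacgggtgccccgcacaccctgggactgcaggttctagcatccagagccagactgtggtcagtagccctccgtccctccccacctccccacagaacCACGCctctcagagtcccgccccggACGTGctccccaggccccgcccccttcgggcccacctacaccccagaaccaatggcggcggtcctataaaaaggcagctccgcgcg
Bnip3: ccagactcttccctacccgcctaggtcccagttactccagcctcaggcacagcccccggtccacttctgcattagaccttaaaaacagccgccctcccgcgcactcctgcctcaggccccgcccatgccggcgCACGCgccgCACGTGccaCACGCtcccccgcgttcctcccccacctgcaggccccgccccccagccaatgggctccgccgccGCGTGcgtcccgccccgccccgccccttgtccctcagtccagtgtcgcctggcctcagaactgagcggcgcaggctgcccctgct
Of the 20 fallen HIF targets, 18 matched a promoter by symbol and 17 of them held a motif (94.4%), while of 34 matched HIF targets tested 33 did (97.1%). Among the 9766 tested genes that matched, 66.8% held one, and 46.7% did among all 27025 genes with a listed promoter. A match is a description of the letters and not a site of binding.

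Several MHC class II genes rose in KO libraries. Class II molecules present antigen to helper T cells, and Ciita is their master activator. Of 18 class II pathway genes tested, 7 rose and 0 fell (median 0.38), against 3.28% and 3.04% of all genes. Ciita had 201, 209.8 and 235 CPM in KO and 125, 134 and 153 CPM in WT libraries (0.65 ± 0.089, adjusted p 0.00097). H2-Ab1, a beta chain, had 5022, 5741 and 7107 CPM in KO and 2965, 3293 and 3994 CPM in WT libraries (0.80 ± 0.14, adjusted p 0.012), and the chaperone Cd74 had 10200, 11430 and 13570 CPM in KO and 7148, 8382 and 8924 CPM in WT libraries (0.53 ± 0.11, adjusted p 0.018). In each of these genes KO 1 was the lowest KO library and still above all 3 WT libraries. H2-Aa (0.79), H2-Eb1 (0.87), H2-DMb1 (0.45) and H2-Oa (1.40) were the other called members. With the replicate block 11 were called, 10 up and 1 down, against 8.1% and 7.67% of all genes, while 2 were called without WT 2. Calls of the class II genes H2-Ab1, H2-Aa and H2-Eb1 were lost without WT 2 (adjusted p 0.0792, 0.121 and 0.127). Cd74 (0.0842) and H2-DMb1 (0.106) lost theirs without WT 1, WT 2 or KO 2. Of 25 class I genes, 2 rose and 0 fell, H2-Q7 (1.24) and H2-Q6 (0.94), which are near-identical copies whose separate values are uncertain.

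Class II promoters were set out in the same way, since NF-Y is known to bind the letters CCAAT in class II promoters; these genes were chosen after their values were seen. Capitals mark CCAAT or its reverse complement. H2-Aa lies at chr17:34287774-34288073 (minus strand), H2-Eb1 at chr17:34305617-34305916 (plus), H2-DMb1 at chr17:34152941-34153240 (plus) and H2-Oa at chr17:34092129-34092428 (plus).
H2-Aa: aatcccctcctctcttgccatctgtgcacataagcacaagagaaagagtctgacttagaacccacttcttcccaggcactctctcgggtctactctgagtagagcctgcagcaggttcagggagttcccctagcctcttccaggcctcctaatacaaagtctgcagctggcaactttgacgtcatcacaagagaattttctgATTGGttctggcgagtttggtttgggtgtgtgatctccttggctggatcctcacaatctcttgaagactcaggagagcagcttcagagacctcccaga
H2-Eb1: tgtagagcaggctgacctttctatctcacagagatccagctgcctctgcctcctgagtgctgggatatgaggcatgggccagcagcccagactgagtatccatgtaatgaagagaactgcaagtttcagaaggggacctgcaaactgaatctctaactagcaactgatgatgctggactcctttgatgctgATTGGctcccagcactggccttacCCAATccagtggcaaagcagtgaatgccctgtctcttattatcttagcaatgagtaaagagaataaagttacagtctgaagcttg
H2-DMb1: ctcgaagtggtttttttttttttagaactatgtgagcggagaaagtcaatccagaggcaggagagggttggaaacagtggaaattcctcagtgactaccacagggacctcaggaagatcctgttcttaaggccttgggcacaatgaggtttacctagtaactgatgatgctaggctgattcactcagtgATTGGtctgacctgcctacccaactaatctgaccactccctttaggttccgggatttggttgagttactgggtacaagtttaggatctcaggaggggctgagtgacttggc
H2-Oa: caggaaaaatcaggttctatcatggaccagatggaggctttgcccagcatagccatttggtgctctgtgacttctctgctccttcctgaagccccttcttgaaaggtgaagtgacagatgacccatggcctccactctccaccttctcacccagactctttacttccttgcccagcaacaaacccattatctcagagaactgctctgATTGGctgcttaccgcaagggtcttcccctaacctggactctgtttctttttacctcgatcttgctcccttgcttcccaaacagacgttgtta
All 4 risen class II genes that matched the table held the motif, as did 11 of 14 matched class II genes tested (78.6%) and 43.1% of tested genes.

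Members of the NF-kappaB, interferon-gamma and immediate early lists rose in KO libraries as well. For each list the shares over all genes are 3.28% that rose and 3.04% that fell, and 8.1% and 7.67% with the replicate block. Of 21 NF-kappaB pathway genes 10 rose and 0 fell (median 0.27). Nfkbid, a nuclear regulator, had 104, 96.9 and 98.7 CPM in KO and 59.7, 53.4 and 63.9 CPM in WT libraries (0.76 ± 0.081, adjusted p 0.00013). Traf1, an adaptor of TNF receptors, had 77.7, 84.3 and 84.9 CPM in KO and 51.1, 51.9 and 53.1 CPM in WT libraries (0.66 ± 0.072, adjusted p 0.00016). In both genes all 3 KO libraries lay above all 3 WT libraries. The subunits Rel (0.45) and Nfkb1 (0.33) and the cofactor Bcl3 (0.43) were also called, but each lost its call without KO 1 or KO 2 (adjusted p up to 0.0954, 0.117 and 0.076). Rel lost it without WT 2 and Nfkb1 without WT 3 as well. Of the NF-kappaB genes, 2 were called without KO 1 and 2 without KO 2, 5 without WT 1 and 6 without WT 3. With the block, 15 rose and 1 fell. Of 28 interferon-gamma induced genes 8 rose and 1 fell (median 0.24), among them the GTPases Igtp (0.48) and Gbp4 (0.40) and the chemokine Cxcl11 (0.52), while 17 rose with the block. Igtp was not called without KO 1 or KO 2 (adjusted p up to 0.0828), and Gbp4 was not called without KO 1 (0.0504). Interferon-gamma genes called were 2 without KO 1, 3 without KO 2 and 5 without WT 1. Of 23 immediate early genes 9 rose and 1, Myc, fell (median 0.24), led by Btg2 with 798, 754 and 767 CPM in KO and 358, 334 and 350.3 CPM in WT libraries (1.15 ± 0.067, adjusted p 5.3e-07). Without KO 2, 6 immediate early genes were called. Btg2 lies in the window of chromosome 1 between 130 and 180 Mb, where 21.8% of genes were called. The phosphatase Dusp2 (0.73) and the transcription factor Egr1 (0.41) rose too. The falling member, Myc (-0.63), was not called without WT 2 (adjusted p 0.0719). Summed immediate early levels were 16659 to 16941 CPM in KO and 14098 to 15594 CPM in WT libraries, and their part in the other results was not tested. The general interferon-stimulated list, with 36 tested, had 0 calls by edgeR and 0 by DESeq2, 0 members with an unadjusted p under 0.05, and a median of 0.06. With the block, 5 of its members rose and 1 fell.

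**Figure D3:**
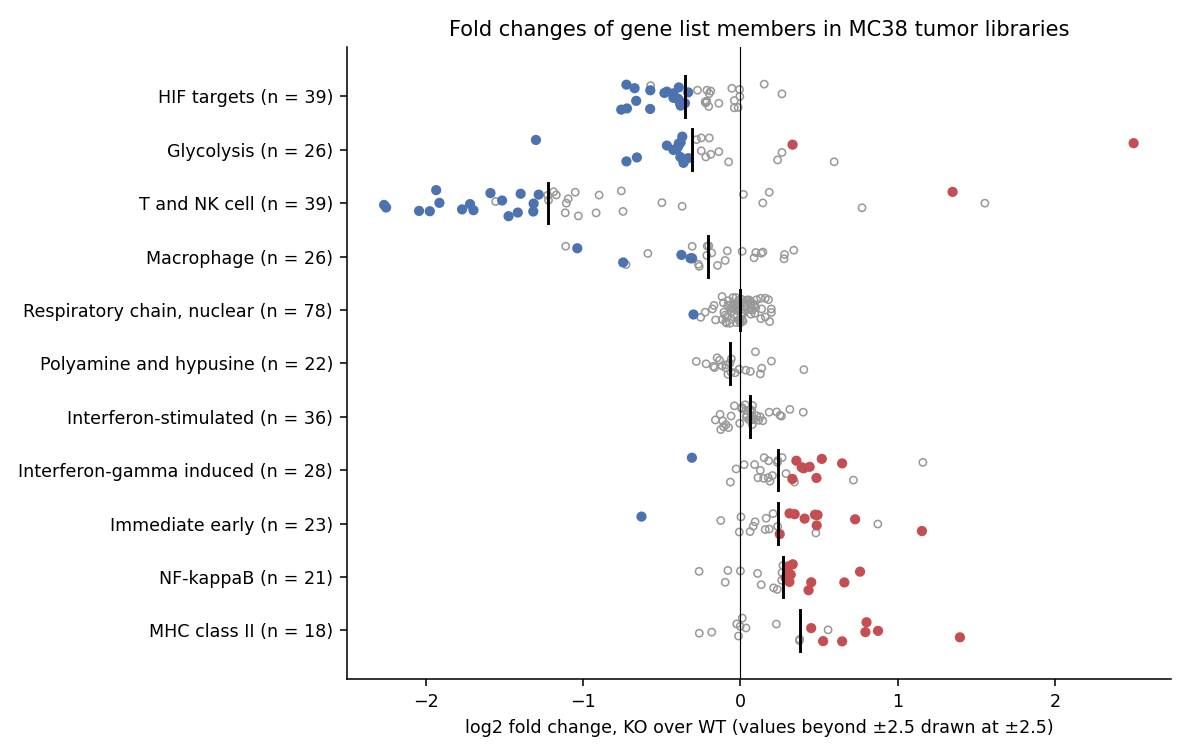
Log2 fold change of KO over WT (x axis) for the tested members of 11 gene lists (rows). Filled red and blue points are called higher and lower, open points are not called and a bar marks the list's median (values beyond 2.5 on either side are drawn there), which is -1.22 for T and NK cell genes and 0.38 for class II genes.

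Many genes of T and NK cells fell in KO libraries, at low levels in both groups. Of 44 listed genes 39 passed the filter, which a gene could pass through the WT libraries alone. Of these 39, 17 fell and 1, Ccl5, rose, with a median of -1.22, where 3.04% of all genes fell and 3.28% rose. Cd28, the costimulatory receptor of T cells, had 1.44, 1.46 and 2.32 CPM in KO and 5.54, 6.19 and 7.86 CPM in WT libraries (-1.91 ± 0.24, adjusted p 0.00045). Icos, its relative, had 1.13, 1.13 and 0.98 CPM in KO and 3.79, 4.59 and 7.21 CPM in WT libraries (-2.25 ± 0.28), and the T cell surface protein Cd5 had 0.479, 0.613 and 0.98 CPM in KO and 2.75, 2.85 and 4.31 CPM in WT libraries (-2.27 ± 0.33). In each gene WT 3 was the highest library. The inhibitory receptor Ctla4 (-1.42), the interleukin-2 receptor chain Il2ra (-1.32), the T cell receptor chain Cd3e (-1.70) and the regulatory T cell factor Foxp3 (-1.93) fell as well. Cd3e was not called without KO 1 or KO 2 (adjusted p up to 0.0909), and Foxp3 was not called without KO 2 (0.0751). Cd8a had 0.305, 0.566 and 1.14 CPM in KO and 1.01, 1.54 and 3.30 CPM in WT libraries and did not pass (adjusted p 0.13, and 0.003 with the block). The list was at 166.6 to 174.6 CPM in KO and 212.2 to 302.4 CPM in WT libraries when Ccl5 was left out. Ccl5 alone had 256, 283 and 358 CPM in KO and 99.99, 111 and 141 CPM in WT libraries. Of the T and NK cell genes, 8 were called without KO 1 and 6 without KO 2.

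**Figure D4:**
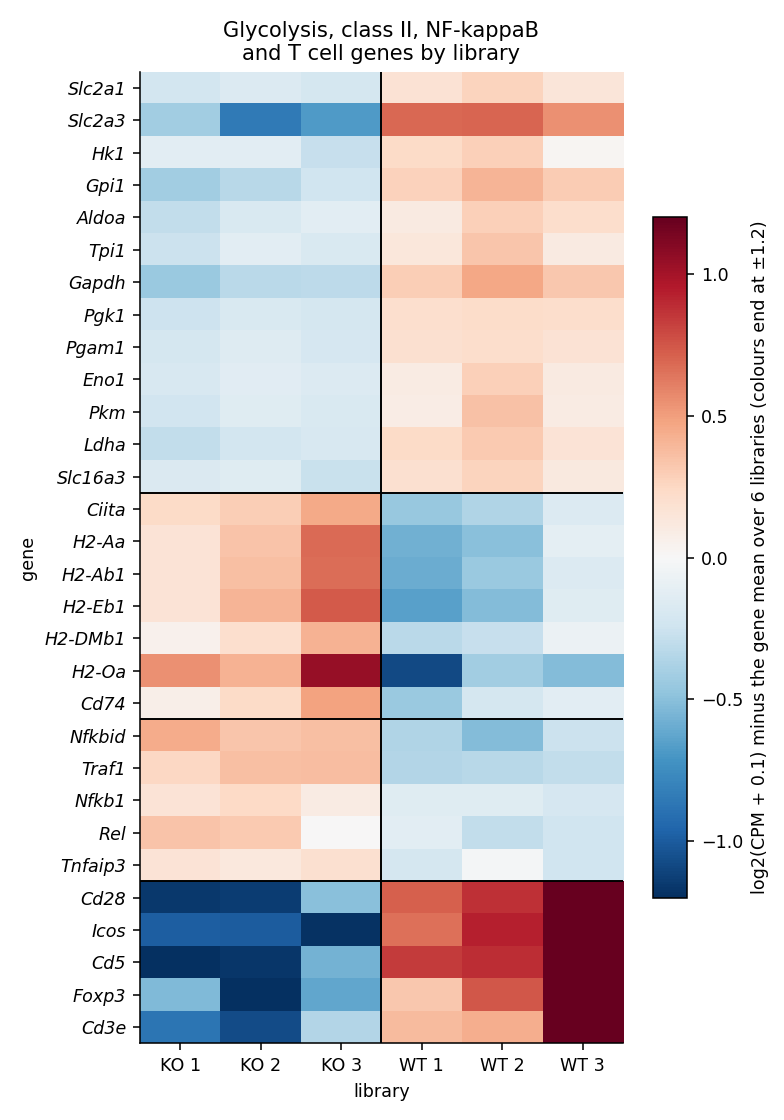
Colour gives log2(CPM + 0.1) minus the mean of the gene over the 6 libraries (red higher, blue lower) for 30 genes (rows) in each KO and WT library (columns). The rows were picked with the values known, so the colours are no result about the lists. The glycolysis genes shown are blue in the KO columns and the class II and NF-kappaB genes shown are red there. T cell genes such as Cd28 and Icos are blue in the KO columns. Eno2 and Slc2a6, glycolysis genes that rose, and Cd8a, which was not called, are not shown. Colours end at 1.2 on either side.

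Effector genes of suppressive myeloid cells moved in both directions. Arg1, arginase, had 2993, 3554 and 3254 CPM in KO and 4738, 4715 and 4457 CPM in WT libraries (-0.50 ± 0.078, adjusted p 0.0021). Nos2, the inducible nitric oxide synthase, had 548, 591 and 609 CPM in KO and 746, 715 and 704 CPM in WT libraries (-0.31 ± 0.069, adjusted p 0.02), and its call was lost without KO 1, KO 2 or WT 1 (adjusted p up to 0.135). Both genes were lower in every KO library than in any WT library, while Arg2, the mitochondrial arginase, rose (0.74). Nt5e (CD73, which makes adenosine) fell to 42.1 ± 7.93 CPM in KO, against 85.6 ± 3.63 CPM in WT libraries (-1.03), and the heme-degrading Hmox1 fell to 297 ± 13.2 CPM in KO, against 439 ± 65.6 CPM in WT libraries (-0.56). The NADPH oxidase subunit Cybb (0.31) and the prostaglandin synthase Ptgs2 (0.43) rose, but Cybb was called with WT 3 left out and with no other library left out (adjusted p up to 0.139). Of 29 suppressive myeloid genes tested, 2 rose and 5 fell, against 3.28% and 3.04% of all genes. With the replicate block 8 rose and 9 fell, against 8.1% and 7.67% of all genes, and 4 were called without KO 1 or without KO 2. Of 13 arginine and nitric oxide genes, 2 were called without KO 1, against 4 with all libraries.

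Among genes of the STAT3 and polyamine pathways, which the title of the study names, Socs3 rose, while Stat3 and Odc1 did not pass the test. Socs3, the feedback inhibitor of IL-6 and STAT3 signals, had 975, 997 and 1020 CPM in KO and 623, 643 and 671 CPM in WT libraries (0.63 ± 0.067, adjusted p 0.00013), without overlap. Stat3 had 727, 700.5 and 636 CPM in KO and 638, 661 and 574 CPM in WT libraries, which overlapped (0.14 ± 0.079, adjusted p 0.35). Over the 34 IL-6 and STAT3 genes 4 rose and 3 fell, against 3.28% and 3.04% of all genes. With the block 11 rose and 3 fell, against 8.1% and 7.67% of all genes, and 4 in all were called without KO 2. Of 22 polyamine and hypusine genes, 0 were called by edgeR and 0 by DESeq2, 1 had an unadjusted p under 0.05 and 1 fell with the block, where edgeR called 6.32% of all genes and 15.8% with the block. Their median was -0.06. Odc1, the first enzyme of polyamine synthesis, had 65.0, 76.8 and 70.0 CPM in KO and 73.3, 71.2 and 81.3 CPM in WT libraries, which overlapped (-0.09 ± 0.084, adjusted p 0.59). Cd274, the ligand PD-L1, also overlapped between the genotypes (0.09, adjusted p 0.50), as did Cpt1a of fatty acid oxidation (0.08), Ly6c2 (-0.05) and S100a8 (0.43).

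Macrophage, protease and complement genes fell in part. Of 26 macrophage genes 5 fell and 0 rose: Spp1 (osteopontin, -1.04), Gpnmb (-0.75), Msr1 (-0.38), Lgals3 (-0.32) and Siglec1 (-0.31), where 3.04% of all genes fell and 3.28% rose. With the replicate block 14 fell and 2 rose, where 7.67% of all genes fell and 8.1% rose. Spp1 was called with each library left out in turn, and each of the other 4 lost its call in at least 1 such fit. The macrophage count was 1 without KO 1, 1 without KO 2 and 3 without WT 1. The summed level of the macrophage list overlapped, with 14378 to 19249 CPM in KO and 15133 to 19677 CPM in WT libraries. The monocyte list summed to 33283 to 37358 CPM in KO and 27138 to 31874 CPM in WT libraries. The myeloid marker Lyz2 alone had 15219 to 19484 CPM in KO and 9351 to 14483 CPM in WT libraries, so such a sum can follow a single gene. Of 22 monocyte genes 2 rose and 1 fell, against 3.28% and 3.04% of all genes, and 1 was called without KO 1, KO 2 or WT 2. Spp1 had 270, 299.8 and 298 CPM in KO and 559.8, 622 and 598 CPM in WT libraries. Adam8, a protease of leukocytes, had 612, 635 and 641 CPM in KO and 1072, 1194 and 1194 CPM in WT libraries (-0.87 ± 0.071, adjusted p 1.2e-05), and the matrix proteases Mmp12 (-1.04) and Mmp13 (-1.29) fell as well. With Spp1 they were the 4 that fell of 24 tested genes of the matrix protease list, and 1 rose, against 3.04% and 3.28% of all genes. The complement receptors C3ar1 (-0.40), C5ar1 (-0.44) and C5ar2 (-0.51), the integrin Itgam (-0.41) and properdin (Cfp, -0.33) fell, whereas the proteases C1s1 (1.55) and C1ra (0.50) rose. Of 20 complement genes tested, these were the 5 that fell and the 2 that rose, against 3.04% and 3.28% of all genes. Of these 7 complement genes, 4 were called without KO 1 and 3 without WT 2. C3ar1 lost its call without KO 1 or KO 2, C5ar1 without KO 1, KO 2, WT 2 or WT 3, Cfp without any 1 library but WT 3, and C1ra without WT 2 (adjusted p up to 0.0613, 0.129, 0.124 and 0.0569). Among chemokines, Ccl2 (-0.49), Ccl7 (-0.47), Ccl12 (-0.64) and Cxcl3 (-1.04) fell and Ccl5, Ccl8 (0.56) and Cxcl11 rose. They were the 4 falls and 3 rises among 22 chemokine genes tested, against 3.04% and 3.28% of all genes. Ccl2 lost its call without WT 1 or WT 2 and Cxcl3 without KO 1 or KO 2 (adjusted p up to 0.0914 and 0.0645). The inhibitory Fc receptor Fcgr2b had 1303, 1365 and 1230 CPM in KO and 819.9, 822 and 802 CPM in WT libraries (0.67 ± 0.069, adjusted p 9.8e-05). Of 25 dendritic cell genes 5 rose and 1, the surface protein Cd24a (-0.96), fell, against 3.28% and 3.04% of all genes. The growth factor receptor Flt3 (1.46), the lectin Cd209a (1.38) and the costimulatory receptor Cd40 (0.48) were called with each library left out in turn, while Cd86 (0.32) and Relb (0.30) lost their calls without KO 1, KO 2 or WT 3. Cd86 lost it without WT 2 and Relb without KO 3 or WT 1 as well (adjusted p up to 0.193 and 0.176).

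In the larger housekeeping lists 0 or 1 member was called, against 6.32% of all genes. With the replicate block 7.67% of all genes fell and 8.1% rose. Of 43 proteasome genes 1 fell, Psmd1 (-0.26), and with the block 9 fell and 1 rose. Of 22 aminoacyl tRNA synthetases 1 fell, Sars (-0.33), and with the block 6 fell and 0 rose. Psmd1 lost its call in each fit without 1 library, and Sars without KO 1, KO 2 or WT 2 (adjusted p up to 0.166 and 0.0818). Among 78 nuclear respiratory chain genes 1 fell, Ndufa9 (-0.30), and the list's median was -0.0031. With the block 3 of them fell and 0 rose. Ndufa9 was not called without KO 1, KO 2 or WT 1 (adjusted p up to 0.0927). None of the 82 cytosolic ribosomal protein genes, 38 replication and mitosis genes or 13 mitochondrial genome genes was called by edgeR. At an unadjusted p under 0.05 there were 3, 3 and 1 of them, and DESeq2 called 0, 2 and 0. With the block 2 ribosomal protein genes rose and 0 fell. Of the replication and mitosis genes 1 rose and 2 fell, and 0 mitochondrial genome genes moved. All 13 mitochondrial genes had a log2 fold change above 0 (median 0.41) and their sum was 1681 to 1973 CPM in KO and 879 to 1615 CPM in WT libraries. The mitochondrial sum of WT 2 (879 CPM) was the lowest. Fibroblast markers summed to 605.5 to 748.9 CPM in KO and 483.5 to 572.4 CPM in WT libraries, and the globin genes Hba-a1, Hba-a2 and Hbb-bt, near-identical copies within each family, rose (0.72, 0.66 and 0.92). Only Hba-a1 was called without KO 1, without KO 2 or without WT 1. The part of these other cells in the results was not tested.

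The KO effect in tumor libraries was tested against that in the cultures. In hypoxia cultures 34.9% of genes were called (17.4% rose and 17.6% fell) and in normoxia cultures 11.3% (7.13% rose and 4.17% fell). The tumor and culture libraries differ in tissue, time and deposited table, which cannot be told apart, and the test compares the KO effects. The interaction was called for 1698 of 16577 genes against hypoxia (10.2%), 634 with the tumor effect higher (3.82%) and 1064 with it lower (6.42%). Against normoxia it was called for 652 of 15441 (4.22%), 220 higher (1.42%) and 432 lower (2.8%). Of the 471 genes that rose in the tumor libraries, 136 rose and 57 fell among the 423 tested in hypoxia cultures, and 78 rose and 25 fell of the 397 in normoxia cultures. For the 437 that fell, hypoxia gave 55 rises and 157 falls of 404, and normoxia gave 28 and 66 of 390. Against normoxia, 334 to 508 genes were called when 1 tumor library was left out, 334 without KO 2, 348 without WT 2 and 389 without KO 1, and 379 when normoxia WT 1, 415 when KO column VPK3 and 421 when WT 4 was left out.

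Vsir fell by 1.89 on the log2 scale in hypoxia and by 2.01 in normoxia cultures, and the difference from the tumor effect did not pass the test (adjusted p 0.69 against hypoxia and 0.99 against normoxia). Ifi202b rose in all 3 experiments, and Slamf7 fell in all 3. For the next 7 genes the tumor effect differed from that in each culture by the interaction test. Chil1 had log2 fold changes of -7.73 in tumor, 1.05 in hypoxia and 0.71 in normoxia, and the differences were -8.82 and -8.48. Ctse (-2.93, 0.71 and 0.88) and Pttg1 (-1.93, 1.63 and 1.51) had the same signs in the same order. Npl had log2 fold changes of -4.03, 0.27 and -0.53, so it fell in normoxia cultures as well. On the other side Cep85 was 4.00, -0.32 and -0.22, Cnbd2 4.52, -0.50 and -0.31, and Ppfia4 5.16, -0.32 and 0.39. The culture effects of these 3 genes did not pass the test (adjusted p 0.12 and 0.34 for Cep85, 0.12 and 0.27 for Cnbd2, and 0.21 and 0.45 for Ppfia4, in hypoxia and normoxia). Il1b, the inflammatory cytokine, had 1049, 1103 and 1500 CPM in KO and 759, 724 and 1023 CPM in WT tumor libraries (0.54, adjusted p 0.13, and 5.2e-08 with the replicate block), against effects of -0.73 and -0.85 in the cultures, and the difference passed the test in both (1.23 and 1.34). Among class II genes, H2-Ab1 rose in normoxia (2.07) and did not pass in hypoxia (-0.38). Its tumor effect was higher than that in hypoxia (1.13, adjusted p 0.044). Tumor effects exceeded those in hypoxia for 2 of 18 class II genes and were lower for 0 (3.82% and 6.42% of all genes). Against normoxia 1 was higher, H2-Oa (1.63), and 1 lower, Ciita (-1.90, adjusted p 0.0063), where 1.42% and 2.8% of all genes were. H2-Aa (2.33) and H2-Eb1 (2.34) rose in normoxia too. Their differences from the tumor effect did not pass the test (adjusted p 0.12 and 0.18). For 9 NF-kappaB genes the tumor effect was higher than in hypoxia cultures and for 2 lower, of 21 tested, against 3.82% and 6.42% of all genes. T and NK cell genes were sparse in cultures, where 14 passed the filter in hypoxia and 7 in normoxia, so no count of differences is given for them.

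**Figure D5:**
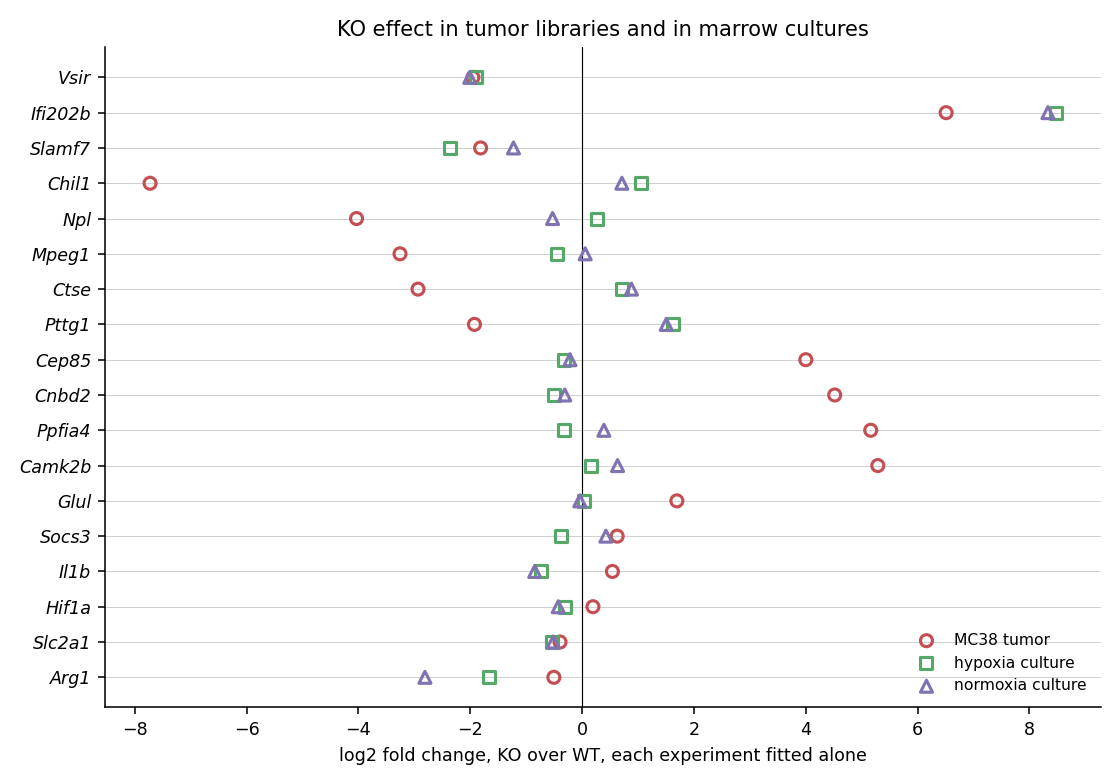
Log2 fold change of KO over WT (x axis) of 18 genes (rows) in tumor libraries (circles), hypoxia cultures (squares) and normoxia cultures (triangles), each fitted alone. Vsir, Ifi202b and Slamf7 lie on one side of zero in all 3 experiments, while Chil1, Ctse and Pttg1 lie below zero in tumor libraries and above it in both cultures.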

How the data were processed

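Total RNA of 6 MC38 tumor samples was turned into bulk RNA-seq libraries (Takara SMART-Seq), as the labels' protocols state. The authors deposited raw counts per gene, and featureCounts of the Subread package and the GRCm38.p6 build are named in the submitters' processing notes. Versions and the strand setting are not given in the sources used here. The authors also deposited a normalized signal, which the submitters' processing notes link to DESeq2, and each of its columns equals the counts times 1 factor per library. It served as an alternative.

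Groups came from the sample titles. Culture columns named VPK were read as KO, because the other columns of those tables are named WT. Genes were placed with GENCODE M21 (24199 of 24251 IDs). The counts were filtered with filterByExpr, scaled by TMM and tested with the quasi-likelihood test of edgeR 4.0.16 (R 4.3.3), with Benjamini-Hochberg adjustment over all tested genes and a threshold of 0.05. Library totals of 19119985 to 31716200 limit the precision of rare genes, and the fits were tested on simulated data with known fold changes. There the interaction fit called fewer of the smaller changes than the tumor fit did, so it can miss small differences. KO effects were compared between tumor and culture by an interaction term in joined tables. Alternatives used limma 3.58.1, DESeq2 1.42.0, other scalings and filters, thinned counts, a fold threshold of 1.2, a replicate block and leaving out each library. Figures were drawn with Python 3.11.15.

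Same-numbered KO and WT libraries deviated together from their group means across genes. Correlations were 0.383, 0.213 and 0.515 for numbers 1, 2 and 3. KO 2 with WT 1 (0.163) and KO 1 with WT 2 (0.0722) were positive as well, and the other pairs of unlike numbers were negative. The main fit used genotype alone, and the numbers were taken as pairs only in the replicate block. This pairing comes from the data and the titles' numbers, since no label states a shared animal or day. Named genes were Vsir, the 12 largest rises and falls by fold and by CPM among called genes without overlap whose average log2 CPM reached 3, up to 5 called members per direction of each list, a set of genes tied to the study's title, and the 5 largest differences from each culture in each direction. Genes outside that rule are said to be so where they appear, apart from cell markers. Members and lists were chosen with earlier results of these data known.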

Additional observations from a re-analysis of the deposited data

Results flagged for a closer look

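These genes had a KO effect in tumor libraries that differed from the effect in a culture by an interaction test at an adjusted p under 0.05, and values are the tumor effect minus the culture effect on the log2 scale. Against hypoxia cultures, the tumor effect was higher for Ppfia4 (5.44), Cnbd2 (4.97), Cep85 (4.28), the globins Hbb-bs (3.93) and Hbb-bt (3.69), Il1b (1.23), Socs3 (0.95), Odc1 (0.67) and Hif1a (0.45). It was lower for Chil1 (-8.82), Npl (-4.35), Ctse (-3.69), Pttg1 (-3.60) and the ubiquitin ligase Mid1 (-3.38).

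Against normoxia cultures, the tumor effect was higher for Cnbd2 (4.78), Ppfia4 (4.73), Cep85 (4.17), Eno2 (2.79), Ifi214 (2.22), Il1b (1.34), Hif1a (0.58) and Cd274 (0.44). It was lower for Chil1 (-8.48), Ctse (-3.87), Npl (-3.55), Pttg1 (-3.48) and Mpeg1 (-3.36). Ifi214, Hbb-bs and Hbb-bt have close paralogs, so their separate values are uncertain. Eno2 did not pass the filter in normoxia cultures fitted alone. In hypoxia cultures Eno2 rose by 5.38, and its difference from the tumor effect did not pass the interaction test (-0.0069, adjusted p 0.99).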

How the results depend on the processing

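The count of called genes was 908, and it was 1363 with no filter on low counts, 333 with a fold threshold of 1.2 and 2266 with the replicate block, while leaving out 1 library gave 444 to 1072. With the fold threshold, 5 HIF targets, 4 glycolysis, 3 class II, 2 NF-kappaB, 3 immediate early and 1 interferon-gamma gene were called. With the block, 11 class II, 16 NF-kappaB and 18 interferon-gamma genes were called. Leaving out 1 library gave 13 to 20 HIF targets, 9 to 15 glycolysis, 2 to 8 class II, 6 to 17 T and NK cell, 2 to 7 NF-kappaB, 6 to 11 immediate early and 2 to 13 interferon-gamma genes. The difference from normoxia cultures was called for 652 genes, for 1032 by DESeq2 and for 334 to 815 with 1 library left out. These fits without a library also have fewer samples. The causes of the other shifts were not tested.

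Of 163 called genes named by rule, 88 were called with each library left out in turn and 75 lost the call at least once. Among genes that were not called, the sign turned for Ly6c2 (-0.17 to 0.039 over the fits without 1 library), Psap (-0.21 to 0.17) and S100a9 (-0.073 to 0.93). Under the replicate block, Il1b, Hif1a and Hbb-bs became called among the genes named by rule, and no other call among them changed. The block was not run for the difference from the cultures, because the KO culture columns carry no replicate numbers of the labels.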

Other observations

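Of 7 tested genes that the annotation places on the Y chromosome, 5 rose and 1 fell in KO libraries, against 3.28% and 3.04% of all genes. Whether their reads came from the Y chromosome or from similar sequence elsewhere was not tested. Xist, which is transcribed from the inactive X chromosome, had 43.1 to 56.3 CPM in KO and 24.1 to 47.1 CPM in WT libraries, and Ddx3y, Uty, Kdm5d and Eif2s3y were not among the genes of the tumor table.

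A few sterol and lipid genes were called, in both directions. Of 30 genes of sterol and fatty acid synthesis, the desaturase Scd2 (-0.93), the last enzyme of cholesterol synthesis Dhcr7 (-1.01) and the citrate lyase Acly (-0.34) fell, and the nuclear receptor Nr1h3 rose (0.74). These 3 falls and 1 rise stand against 3.04% and 3.28% of all genes, and the list's median was 0.0062. Acly was called with WT 3 left out and with no other library left out (adjusted p up to 0.138). The interleukin-1 receptor antagonist Il1rn averaged 599.6 ± 24.9 CPM in KO and 355 ± 27.7 CPM in WT libraries (SD, n = 3 each) and rose by 0.76 on the log2 scale. The chemokine receptor Cxcr4 averaged 63.8 ± 1.71 CPM in KO and 119 ± 9.20 CPM in WT libraries (-0.90). The iron reductase Steap3 fell (-1.49).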
